A study of Homo sapiens with 6 samples.

Results

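Ribosome biogenesis factors are the proteins that make ribosomes but, for the most part, are not part of the finished ribosome. A list of 52 such genes was taken, and each gene was read from the brightest probe set that names it alone, by its mean over 6 arrays. Of the 52 genes, 46 had such a probe set, out of 19775 genes measured in this way. NOP56, DKC1, BOP1 and PPAN were covered only by probe sets that name other genes as well, and DDX18 and GNL3 had no probe set in the annotation used here, so these 6 were not analysed. The arrays came from HaCaT, an immortalised human keratinocyte line, grown in serum-containing medium and then kept for 12 h either at ambient pressure or in an incubator that applied a negative pressure gradient of 125 mmHg. Each condition had 3 biological replicates, and no genetic change or further agent is given for either group. The labels name no other cell type in these cultures.

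Ribosome production starts in the nucleolus, where RNA polymerase I transcribes a long precursor of the ribosomal RNAs. Small nucleolar ribonucleoproteins (snoRNPs) guide chemical modification of the precursor, and a large assembly called the small subunit processome folds and cleaves it. Other factors build the large subunit and accompany both subunits towards the cytoplasm. The pathway takes much of the energy of a growing cell, and many of its genes are known targets of MYC, which binds the E-box, a short DNA motif. The arrays measured the mRNAs of these factors, not ribosomal RNA or ribosomes.

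Most of the measured factors were lower under negative pressure, by small amounts, and 1 passed the test. The median log2 fold change (negative minus ambient pressure) of the 46 genes was -0.22, with a range of -1.03 to 0.15, while the median of all 19775 genes was 0.01. The change was below 0 for 39 of the 46 genes (84.8%), against 46.6% of all genes. The list was chosen with earlier results of these data known, so the shares given here beside those of all genes are a description. The members were also brighter, with a median level of 8.44, well above that of all genes, so these shares do not compare genes of like level. With the genes of lowest mean left out, 44.8% of the remaining 13183 genes were below 0. The shares by unadjusted p and by order of the arrays were not computed for those genes. Of 103 other ribosome biogenesis genes, 74.8% were below 0, with a median of -0.10. DDX51 fell, at an adjusted p under 0.05 by limma (Benjamini-Hochberg, all genes together), as 0.314% of all genes did. None of the 46 rose, where 0.607% of all genes did, and none was higher at an unadjusted p under 0.05 either, against 7.21% of all genes. At an unadjusted p under 0.05, 13 of the 46 (28.3%) were lower, against 4.45% of all genes. All 3 negative pressure arrays lay below all 3 ambient arrays for 18 of the 46 (39.1%), against 6.96% of all genes. The opposite order, every negative pressure array above every ambient array, was found for 0 of the 46, against 10.3% of all genes. The median standard error of the 46 log2 fold changes was 0.14, beside the median change of -0.22.

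The groups share replicate numbers 1 to 3, which were treated as pairs in a further fit. No label states that these cultures are pairs. In deviations from the group means, ambient array 1 correlated more with negative pressure array 2 (0.43) than with array 1 (0.27), so the pairing is not sure. With the number as a replicate block in limma, DDX51, WDR43, NOP58, UTP15 and MRTO4 fell, 5 of 46 (10.9%), where 2.06% of all genes fell. With the block 0 of the 46 rose, against 2.87% of all genes. Within same-numbered pairs the factors were lower in all 3 pairs for 29 of 46 genes (63.0%; 16.7% of all genes) and higher in all 3 for TCOF1 alone (2.17%; 22.1% of all genes). The median difference of the 46 genes was -0.12 in pair 1, -0.15 in pair 2 and -0.31 in pair 3, where the medians of all genes were 0.05, 0.00 and 0.00. All 3 pairs thus leaned the same way, and pair 3 leaned furthest.

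**Figure D1:**
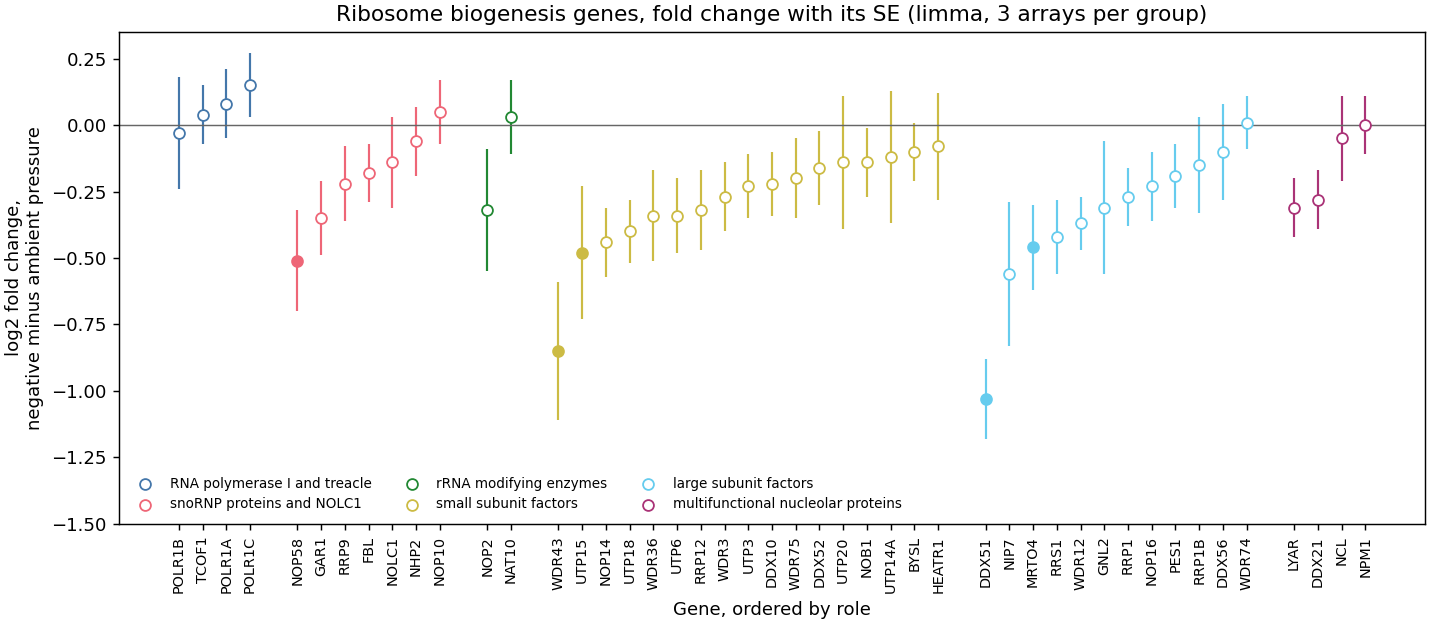
Log2 fold change of the 46 measured ribosome biogenesis factors (negative minus ambient pressure, n = 3 arrays per group), grouped by role, with bars of 1 standard error and filled points for genes past the threshold with the replicate block. Of the points, 39 lie below 0, and DDX51 (-1.03) and WDR43 (-0.85) lie lowest.

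The 6 arrays had medians of 3.81 to 3.89 and replicates of a group correlated at 0.989 to 0.997. Both arrays numbered 3 stood apart from the other 4 on the first principal component (20.3 and 31.1, against -18.3 to -9.07). The factors were lower mainly on the negative pressure array of this number. Replicate 3 differed from the mean of replicates 1 and 2 by a median of -0.22 over the 46 genes there (all genes -0.01). In the ambient group this median was -0.05 (all genes 0.01), and 58.7% of the 46 genes were lower, against 49.1% of all genes. The 17 small subunit factors were lower on both arrays numbered 3, by medians of -0.22 at ambient and -0.28 under negative pressure. Of these, 13 were lower in both groups (76.5%, against 34.0% of all genes). The part of the arrays numbered 3 in the results was not tested, and values without these arrays are given below. All 8 measured keratinocyte markers of 10 listed had means above that of the median gene (5.0). Their mean per array was 10.36 to 10.39 at ambient and 10.49 to 10.50 under negative pressure. The fibroblast, melanocyte, immune and endothelial lists had highest means of 4.87 to 6.78 and list means of 3.43 to 4.40 on every array. CDH5, an endothelial cadherin, fell from 4.81 to 4.01 (adjusted p = 0.0325 by limma), both under the median gene mean, and no other marker passed the test. In RNA from whole cultures, fewer cells of a kind and less RNA per cell cannot be told apart, and because the arrays were scaled to each other, a change in the total RNA of a cell is not measured.

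Promoter sequences are shown because a motif that the choice of the list did not use was found in many, though not most, of the members' windows. RefSeq windows (GRCh38.p14, 250 bases before to 50 bases after the transcription start) were at hand for 43 of the 52 listed genes. The E-box CACGTG, which reads the same on both strands, was present in the window of 18 of these 43 genes (41.9%). It was present for 8.77% of 27305 genes with a window, for 10.9% of the 15384 of them on the arrays, and for 27.2% of 92 other ribosome biogenesis genes. Within 50 bases of the start it was found for 16 of the 43 (37.2%), against 3.51% of all genes and 21.7% of the other ribosome biogenesis genes. A match of these letters is a description and not a measured binding site. Both long windows below run from 250 bases before to 30 bases after the start, with the E-box in capitals. That of WDR43 (chr2:28894417-28894696, plus strand) has it 4 bases into the transcript and that of MRTO4 (chr1:19251555-19251834, plus strand) 15 bases into it.
WDR43: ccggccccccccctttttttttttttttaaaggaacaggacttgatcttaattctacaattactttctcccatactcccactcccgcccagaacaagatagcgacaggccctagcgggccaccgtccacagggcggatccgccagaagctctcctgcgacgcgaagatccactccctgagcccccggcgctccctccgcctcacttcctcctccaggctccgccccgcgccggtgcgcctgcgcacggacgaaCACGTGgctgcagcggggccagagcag
MRTO4: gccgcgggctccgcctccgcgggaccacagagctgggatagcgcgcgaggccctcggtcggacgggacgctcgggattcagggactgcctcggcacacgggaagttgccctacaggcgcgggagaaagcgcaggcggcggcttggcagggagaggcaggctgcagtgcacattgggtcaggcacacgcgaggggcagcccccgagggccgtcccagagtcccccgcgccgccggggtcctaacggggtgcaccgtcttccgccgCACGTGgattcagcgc
DDX51, the member with the largest change, has no E-box in its window. Its start lies 138 bases from that of NOC4L, a small subunit factor gene read from the other strand, and the stretch between them and the first 30 transcribed bases of DDX51 are shown (chr12:132144290-132144456, minus strand).
DDX51: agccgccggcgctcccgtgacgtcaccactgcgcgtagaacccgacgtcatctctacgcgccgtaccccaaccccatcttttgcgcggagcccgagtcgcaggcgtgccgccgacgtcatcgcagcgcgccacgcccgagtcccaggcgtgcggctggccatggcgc

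The E-box with 12 bases on each side is given next in the direction of the gene, with the motif in capitals, to show its setting in genes of different roles: NOP10, RRP9 and FBL of the snoRNPs (chr15:34343130-34343159, minus; chr3:51941892-51941921, minus; chr19:39846356-39846385, minus), NAT10 (chr11:34105602-34105631, plus), UTP18, NOP14 and UTP20 of the small subunit (chr17:51260538-51260567, plus; chr4:2963374-2963403, minus; chr12:101280083-101280112, plus), GNL2 and PES1 of the large subunit (chr1:37595917-37595946, minus; chr22:30591880-30591909, minus), and DDX21 (chr10:68956604-68956633, plus).
NOP10: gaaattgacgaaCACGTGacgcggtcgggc
RRP9: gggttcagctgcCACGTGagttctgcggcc
FBL: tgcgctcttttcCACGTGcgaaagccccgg
NAT10: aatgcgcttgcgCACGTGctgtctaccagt
UTP18: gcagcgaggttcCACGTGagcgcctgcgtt
NOP14: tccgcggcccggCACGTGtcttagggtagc
UTP20: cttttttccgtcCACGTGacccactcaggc
GNL2: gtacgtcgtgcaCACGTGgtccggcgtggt
PES1: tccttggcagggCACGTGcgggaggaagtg
DDX21: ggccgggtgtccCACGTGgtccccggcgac
The first base of the motif lies 11, 5, 15, 10 and 31 bases before the start in NOP10, RRP9, NAT10, UTP20 and DDX21, and at base 7, 5, 16, 4 and 14 of the transcript in FBL, UTP18, NOP14, GNL2 and PES1. UTP18 and NOP10 each have another one further upstream.

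**Figure D2:**
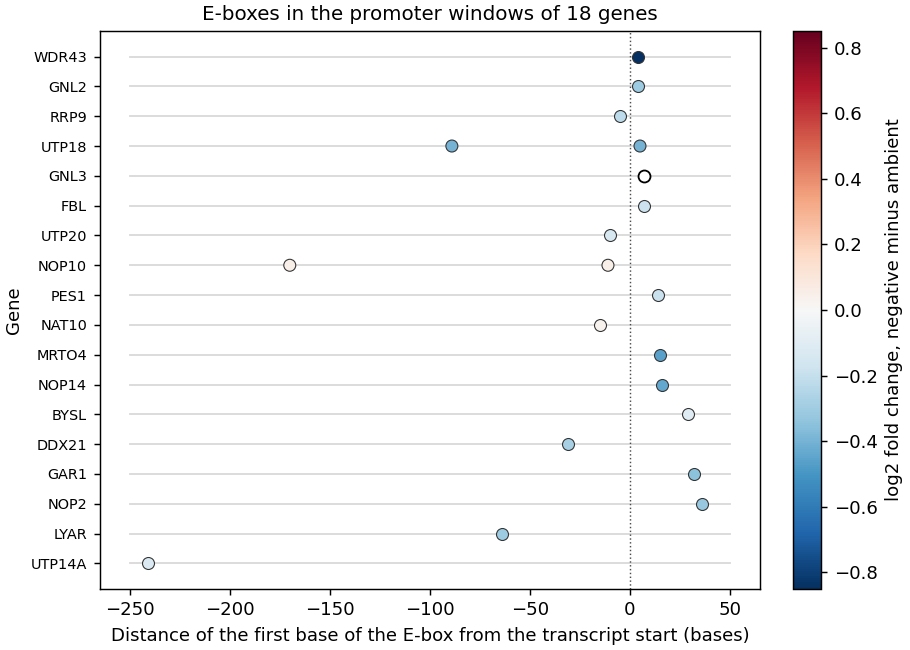
Position of the E-box in the promoter windows of the 18 listed genes that have one, in bases from the transcription start, coloured by the fold change of the 17 measured ones (GNL3, not measured, is open). Of the genes, 16 have a motif within 50 bases of the start, and the motifs of UTP14A (-241) and LYAR (-64) and the additional ones of NOP10 (-170) and UTP18 (-89) lie outside that stretch.

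The fold changes of members with and without the motif are given side by side. The 17 measured genes with an E-box had a median of -0.28 and a range of -0.85 to 0.05, 15 of them were below 0, and 9 had all negative pressure arrays below the ambient ones. The 22 measured genes with a window and no E-box had a median of -0.21 and a range of -1.03 to 0.15, 18 were below 0, and 6 had that order of arrays. Of all 46 members 39.1% had that order, and of all genes 6.96%. With the replicate block 2 of the 17 fell (WDR43 and MRTO4) and 2 of the 22 (DDX51 and UTP15), where 2.06% of all genes fell. NOP58, which also fell with the block, has no window. No test was made between the sets with and without an E-box, whose ranges overlap over nearly their whole length.

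Transcription of ribosomal RNA was represented by POLR1A and POLR1B, which form the catalytic core of RNA polymerase I, by POLR1C, a subunit shared with RNA polymerase III, and by TCOF1 (treacle), a nucleolar protein that supports polymerase I. The median of these 4 genes was 0.06, 1 of 4 was below 0, and none had all negative pressure arrays below the ambient ones. The sign of this median depends on the probe set: with each gene read as the mean of its probe sets it was -0.07, with 3 of 4 below 0. No difference between roles was tested. POLR1C was at 7.49, 7.53 and 7.49 at ambient pressure and at 7.81, 7.70 and 7.47 under negative pressure (replicates 1 to 3; log2 scale). Its negative pressure arrays 1 and 2 were the highest of the 6 and array 3 the lowest. The difference was 0.15 ± 0.12 (SE, n = 3 per group; adjusted p = 0.746 by limma), the highest among the 46 genes. POLR1A was at 6.11, 6.20 and 6.37 against 6.47, 6.23 and 6.21, a difference of 0.08 ± 0.13 (SE; adjusted p = 0.903) with overlapping groups. TCOF1 changed by 0.04 and POLR1B by -0.03.

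Other probe sets of the polymerase genes gave lower values than the brightest ones. A dimmer POLR1B probe set (mean 6.19 against 8.30) was at 6.45, 6.51 and 6.57 at ambient pressure and at 6.03, 5.90 and 5.65 under negative pressure. There the groups did not overlap, and the difference was -0.65 ± 0.13 (SE; adjusted p over all probe sets 0.0825, and 0.0364 with the replicate block, under which 1.10% of all probe sets fell). The POLR1A probe set at a mean of 4.99 was at 4.97, 5.36 and 5.12 against 4.97, 4.77 and 4.73, a difference of -0.33 ± 0.14 (SE; adjusted p = 0.474). The sign of the POLR1A difference therefore depends on the probe set, and the size of the POLR1B difference does so as well.

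The snoRNP proteins carry out the guided modifications: FBL (fibrillarin), a 2′-O-methyltransferase, works with NOP58, and the H/ACA proteins GAR1, NHP2 and NOP10 work with the pseudouridine synthase DKC1. Of the 7 measured genes of this role, counting NOLC1, a chaperone of snoRNPs, 6 were below 0, with a median of -0.18 and a range of -0.51 to 0.05. NOP58 was the lowest of them. It was at 10.34, 10.31 and 9.90 at ambient pressure and at 9.85, 9.90 and 9.28 under negative pressure, a mean of 10.18 ± 0.24 against 9.68 ± 0.34 (SD, n = 3). The lowest ambient array, number 3, lay above the highest negative pressure array by less than the second decimal shows, and each pair differed by a similar amount (-0.49, -0.41 and -0.62). The log2 fold change was -0.51 ± 0.19 (SE), with an adjusted p of 0.324 by limma and of 0.0231 with the replicate block (SE 0.11). Without negative pressure array 3 it was -0.31 (adjusted p = 0.460). Without both arrays numbered 3 it was -0.45, with an adjusted p of 0.0774, or 0.101 with the block. Adjusted over all probe sets, the blocked p was 0.0530. GAR1 (-0.35) and FBL (-0.18) also had every negative pressure array below every ambient one, without passing the test. NOP10 stood at the other end, at 10.41, 10.36 and 10.54 against 10.67, 10.40 and 10.40 (0.05 ± 0.12 SE, adjusted p = 0.940), and its groups overlapped.

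Both of the other rRNA-modifying enzymes had overlapping groups. NOP2, which methylates a cytosine of the large subunit RNA, was at 8.52, 8.56 and 8.57 at ambient pressure and at 8.65, 8.40 and 7.62 under negative pressure (-0.32 ± 0.23 SE, adjusted p = 0.695). Negative pressure array 3 stood far below the other 5: the pairs differed by 0.13, -0.16 and -0.94, and without both arrays numbered 3 the difference was -0.02. NAT10, which acetylates cytosines of the small subunit RNA, was at 8.39, 8.69 and 8.47 against 8.70, 8.63 and 8.31 (0.03 ± 0.14 SE, adjusted p = 0.973).

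All 17 small subunit factors were below 0, with a median of -0.23 and a range of -0.85 to -0.08. This rests in part on negative pressure array 3: without it 14 of the 17 were below 0, and UTP14A, UTP20 and HEATR1 were at 0.20, 0.18 and 0.15, or at 0.06, 0.09 and 0.07 without both arrays numbered 3. In 7 of the 17 (41.2%, against 39.1% of the 46 and 6.96% of all genes) all negative pressure arrays lay below the ambient ones. In all 3 pairs 13 were lower (76.5%, against 63.0% of the 46 and 16.7% of all genes). With the replicate block WDR43 and UTP15 fell (11.8%, against 10.9% of the 46 and 2.06% of all genes). Both are proteins of the subcomplex of the small subunit processome that joins early and is tied to transcription of ribosomal DNA (UTPA, also called t-UTP). HEATR1 and WDR75, of the same subcomplex, had log2 fold changes of -0.08 and -0.20. These proteins form 1 complex, yet by the brightest probe sets the differences of their mRNAs spanned the full range of this role. The dimmer HEATR1 probe sets gave -0.08, -0.38, -0.20 and -0.32, so its place in that range depends on the probe set. No difference between these genes was tested.

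WDR43 was at 8.18, 8.13 and 7.41 at ambient pressure and at 7.18, 7.44 and 6.57 under negative pressure. The groups overlapped, because ambient array 3 lay below negative pressure array 2, yet every pair was lower, by -1.0, -0.69 and -0.84. The mean was 7.91 ± 0.43 against 7.06 ± 0.45 (SD, n = 3), 1.80-fold lower, or -0.85 ± 0.26 (SE) on the log2 scale. The adjusted p by limma was 0.213, and 0.00212 with the replicate block (SE 0.11). Replicate 3 was lower than the mean of replicates 1 and 2 in both groups, by -0.75 and -0.74. Without both arrays numbered 3 the difference was again -0.85, and it passed the test without the block (adjusted p = 0.0247). WDR43 is represented by 1 probe set.

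UTP15 was at 7.71, 7.65 and 7.18 at ambient pressure and at 7.33, 7.33 and 6.43 under negative pressure, with overlapping groups and pair differences of -0.38, -0.32 and -0.75. Array 3 was the lowest of its group in both conditions. The log2 fold change was -0.48 ± 0.25 (SE), with an adjusted p of 0.515 by limma and of 0.0434 with the replicate block. It was -0.18 without negative pressure array 3 (adjusted p = 0.725) and -0.35 without both arrays numbered 3 (adjusted p = 0.137, or 0.181 with the block). A dimmer UTP15 probe set, at 5.50, 5.33 and 4.92 against 5.07, 4.28 and 4.05, gave -0.78 (adjusted p over all probe sets 0.302, or 0.0223 with the block). In that adjustment over all probe sets the brighter one had a blocked p of 0.0890.

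Further along the processome, UTP18 of the UTPB subcomplex and NOP14 had non-overlapping groups without passing the test. UTP18 was at 9.50, 9.60 and 9.40 at ambient pressure and at 9.19, 9.16 and 8.94 under negative pressure, a difference of -0.40 ± 0.12 (SE; adjusted p = 0.205, or 0.0557 with the block). NOP14 was at 7.32, 7.32 and 7.59 against 7.15, 6.81 and 6.94, a difference of -0.44 ± 0.13 (SE; adjusted p = 0.210, or 0.0606 with the block). NOP14 has no other probe set, while a far dimmer one of UTP18, at a mean of 3.26, gave -0.11, and the mean of both -0.26. UTP6, RRP12, UTP3, DDX10 and BYSL showed the same order of arrays with smaller differences, of -0.34, -0.32, -0.23, -0.22 and -0.10. The remaining small subunit factors, WDR36, WDR3, WDR75, DDX52, UTP20, NOB1, UTP14A and HEATR1, had overlapping groups and differences of -0.34 to -0.08.

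**Figure D3:**
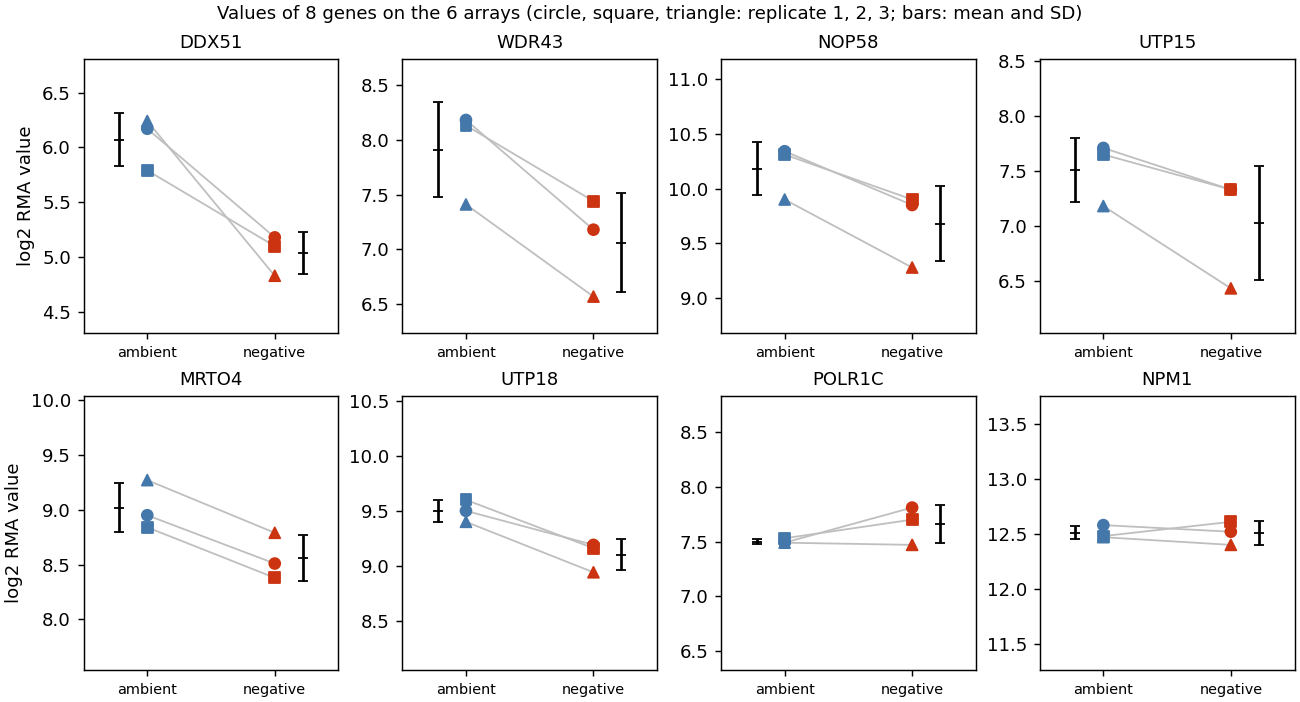
Log2 RMA value of 8 members on each of the 6 arrays, with the marker shape giving the replicate number (circle 1, square 2, triangle 3) and bars for the mean and SD of each group (n = 3). The groups are apart for DDX51, NOP58, MRTO4 and UTP18, and overlap for WDR43, UTP15, POLR1C and NPM1.

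Among the large subunit factors 11 of the 12 measured genes were below 0, with a median of -0.29 and a range of -1.03 to 0.01, and 6 had all negative pressure arrays below the ambient ones. DDX51, an RNA helicase of large subunit rRNA processing, was at 6.17, 5.79 and 6.24 at ambient pressure and at 5.18, 5.10 and 4.83 under negative pressure. The groups did not overlap: no negative pressure array was above 5.18 and no ambient array under 5.79. The mean was 6.07 ± 0.24 against 5.04 ± 0.19 (SD, n = 3), 2.05-fold lower, or -1.03 ± 0.15 (SE) on the log2 scale (adjusted p = 0.0245 by limma, and 0.00214 with the replicate block). The call did not hold when 1 array was left out, save negative pressure array 3. The difference then stayed between -1.17 and -0.93, with an adjusted p of 0.121, 0.0895 and 0.0599 without ambient arrays 1, 2 and 3, and of 0.0818 and 0.104 without negative pressure arrays 1 and 2. Without both arrays numbered 3 it was -0.84 (adjusted p = 0.0380).

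The level of DDX51 is the lowest of the 46 (mean 5.55, against a median gene mean of 5.0), and its probe sets gave different sizes. Another one, at a mean of 4.91, was at 4.92, 4.82 and 5.41 against 4.69, 4.56 and 5.08, with overlapping groups and a difference of -0.28 ± 0.19 (SE; adjusted p over all probe sets 0.760). The dimmest one, at a mean of 3.13, gave -0.14. All had the same sign, and the large change was seen in the brightest one, which represents the gene. When each gene was read as the mean of its probe sets, DDX51 was at -0.48 and did not pass the limma threshold (adjusted p = 0.0739). NOC4L, which shares the promoter stretch shown above, had a log2 fold change of -0.34 ± 0.19 (SE; adjusted p = 0.572).

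MRTO4, a factor related to the ribosomal stalk protein P0 that holds its place on the maturing large subunit, was at 8.95, 8.84 and 9.27 at ambient pressure and at 8.51, 8.38 and 8.79 under negative pressure. The groups did not overlap and the pairs differed by nearly the same amount, -0.43, -0.46 and -0.48. The log2 fold change was -0.46 ± 0.16 (SE), with an adjusted p of 0.270 by limma and of 0.0324 with the replicate block. Unlike WDR43 and UTP15, MRTO4 was higher in replicate 3 than in the others in both groups, by 0.37 and 0.34. Without both arrays numbered 3 it was -0.45 (adjusted p = 0.0955, or 0.102 with the block). Adjusted over all probe sets, its blocked p was 0.0679, and its other probe set gave -0.19. EMC1, whose start lies 281 bases from that of MRTO4 on the other strand, changed by 0.23 (adjusted p = 0.499).

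RRS1, which helps bring the 5S ribonucleoprotein into the large subunit, and WDR12, a partner of PES1 and BOP1 in the PeBoW complex, had no overlap of the groups and missed the threshold. RRS1 was at 9.09, 9.16 and 8.75 at ambient pressure and at 8.68, 8.61 and 8.46 under negative pressure (-0.42 ± 0.14 SE, adjusted p = 0.264, or 0.0547 with the block). WDR12 was at 9.10, 9.17 and 9.11 against 8.72, 8.75 and 8.79 (-0.37 ± 0.10 SE, adjusted p = 0.168, or 0.0703 with the block). WDR12 varied little within each group, with an SD of 0.03 in both, but its far dimmer probe sets gave -0.20 and 0.16, and the mean of all of them -0.14. Its partner PES1 also had every negative pressure array below every ambient one, with a difference of -0.19.

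NIP7 had the second largest difference of the large subunit factors and a wide spread. It was at 8.68, 8.26 and 8.24 at ambient pressure and at 7.99, 8.35 and 7.17 under negative pressure (-0.56 ± 0.27 SE, adjusted p = 0.481, or 0.103 with the block). Negative pressure array 2 lay inside the ambient range and array 3 far below it, so that the difference was -0.23 to -0.82 with 1 array left out. Its other probe set, of nearly the same brightness, gave -0.65. GNL2, a nucleolar GTPase, was also lowest on negative pressure array 3, at 8.34, 8.26 and 7.85 against 8.11, 8.18 and 7.22 (-0.31). RRP1 (-0.27), NOP16 (-0.23), RRP1B (-0.15) and DDX56 (-0.10) were lower by their brightest probe sets, without passing the test. Their dimmer probe sets gave 0.01 for RRP1, 0.01, 0.07 and -0.12 for NOP16, -0.15 for RRP1B and 0.00 for DDX56. WDR74 was at 8.81, 8.87 and 8.88 against 8.87, 8.86 and 8.87, a difference of 0.01 ± 0.10 (SE; adjusted p = 0.985).

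Of the abundant multifunctional nucleolar proteins, NPM1 (nucleophosmin) had the highest level of the 46 genes and, by its brightest probe set, no difference in its means. It was at 12.58, 12.48 and 12.47 at ambient pressure and at 12.52, 12.61 and 12.40 under negative pressure (0.00 ± 0.11 SE, adjusted p = 0.999). Its other probe sets, at means of 12.06 and 11.34, gave -0.04 and -0.18. The groups of the dimmest one did not overlap, and it did not pass the test. NCL (nucleolin) was at 11.19, 11.10 and 10.78 against 11.09, 11.16 and 10.68 (-0.05). The helicase DDX21 and the nucleolar protein LYAR were lower on every negative pressure array than on any ambient one. LYAR was at 8.72, 8.69 and 8.83 against 8.46, 8.32 and 8.52, a difference of -0.31 ± 0.11 (SE; adjusted p = 0.305, or 0.127 with the block), and its other probe set also gave -0.31. DDX21 was at 10.83, 10.82 and 10.73 against 10.52, 10.60 and 10.42 (-0.28). Its other probe set, at 10.31, 10.26 and 9.88 against 10.39, 10.12 and 9.10, also gave -0.28, but with overlapping groups, an SE of 0.29 and the lowest value on negative pressure array 3.

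**Figure D4:**
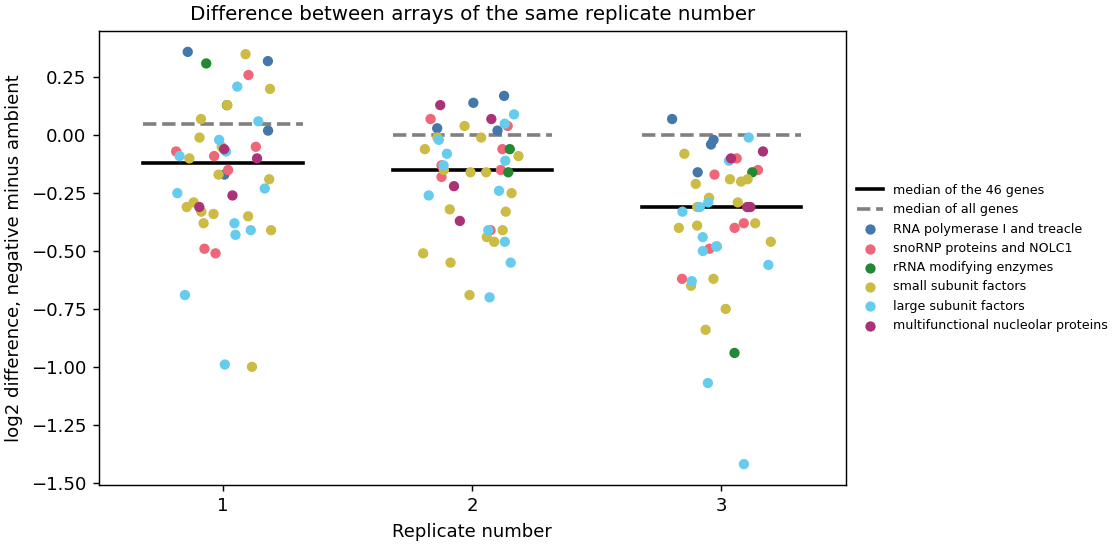
Difference of each same-numbered pair (negative minus ambient pressure, log2 scale) for the 46 members, by replicate number, with the median of the members and of all genes. The members' medians are -0.12, -0.15 and -0.31, and 45 of 46 genes lie below 0 in pair 3.

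Because pair 3 leaned furthest, the members were also described without it. Replicate 3 was below the mean of replicates 1 and 2 in both groups for 26 of the 46 genes (56.5%, against 34% of all genes) and under negative pressure for 37 (80.4%; 51.7% of all genes). The genes with the largest such drops under negative pressure were NIP7 (-1.0), UTP20 (-0.97), UTP14A (-0.97), GNL2 (-0.93), NOP2 (-0.90) and UTP15 (-0.89), and at ambient pressure they dropped less or, for NOP2, not at all (-0.23, -0.25, -0.43, -0.46, 0.03 and -0.49). Without both arrays numbered 3 the median of the 46 genes was -0.16, 34 of them were below 0 in place of 39 (of all genes, 44.8% were below 0 in that fit), and DDX51 and WDR43 fell, where 0.759% of all genes fell. Without negative pressure array 3 alone the median was -0.13, and without negative pressure array 1 it was -0.27, the widest departures with 1 array left out. The direction of the median was the same in each of these fits.

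The members with more than 1 probe set offer another reading of the same arrays. In all, 94 probe sets name 1 of the 46 genes alone, and 29 genes have more than 1. Of the 48 that do not represent their gene, 39 were below 0, 8 above 0 and 1 at 0.00. Of the 16 whose mean lay within 1.5 of the brightest one, 13 were below 0, and 8 had the same sign as the brightest one of their gene. None of the 48 passed the threshold over all probe sets without the block. They share the RNA and the arrays with the brightest ones and are no further replicates.

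**Figure D5:**
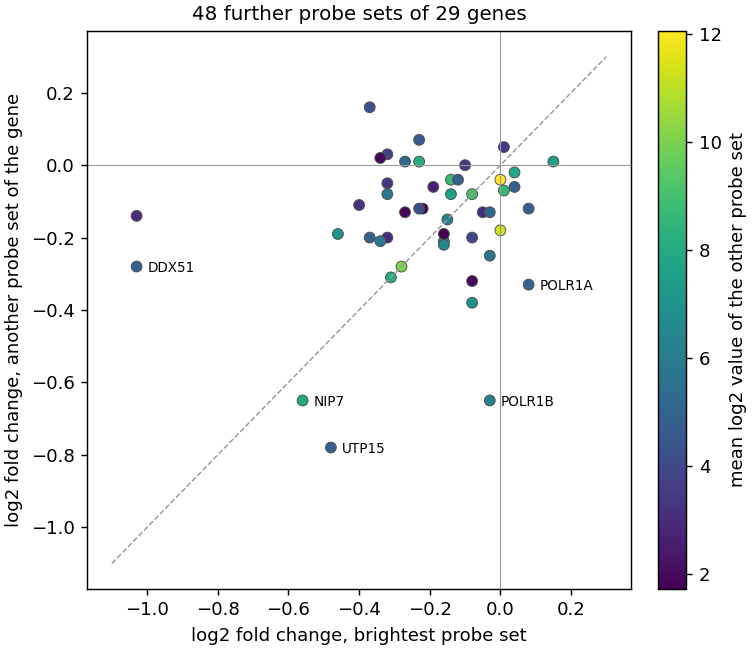
Log2 fold change of the other probe sets of the members against that of the brightest probe set of the same gene, each as negative minus ambient pressure (n = 3 arrays per group), with the line of equality. Of 48 points, 39 lie below 0 on the vertical axis, and the POLR1B probe set at -0.65 and a DDX51 one at -0.28 lie far from the line.

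Several of the listed genes carry small nucleolar RNA genes within their span: NOP56, NOP58, DKC1, WDR43, PPAN, NCL and GNL3, 7 of 52. Those measured were WDR43 with SNORD53, SNORD53B and SNORD92, NOP58 with SNORD11, SNORD11B, SNORD70 and SNORD70B, and NCL with SNORA75, SNORD20 and SNORD82. The log2 fold changes of these 3 host genes were -0.85, -0.51 and -0.05, so hosts were among the genes with the largest and the smallest differences. The probe sets of the hosts read their mRNAs, and the small RNAs were not analysed here.

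A list of 106 other ribosome biogenesis genes, of which 103 were measured, is given beside the members. Their median was -0.10, with a range of -0.84 to 0.47, and 77 of 103 (74.8%) were below 0. None passed the limma threshold without the block, 9 were lower and 3 higher at an unadjusted p under 0.05, and with the replicate block EXOSC9 fell and none rose. The shares of all genes for these counts are those given for the members (4.45% and 7.21% at the unadjusted p, and 2.06% with the block, where EXOSC9 alone makes 0.971% of the list). Negative pressure arrays lay all below the ambient ones for 16 genes (15.5%, against 6.96% of all genes) and all above for 3, against 10.3% of all genes. By group, the numbers below 0 were 7 of 11 other genes of polymerase I, 26 of 34 small subunit factors, 27 of 38 large subunit factors, 6 of 8 snoRNP assembly factors and 11 of 12 genes of the RNA exosome, which trims rRNA precursors from their 3′ end. EXOSC9, a core subunit of the exosome, was at 8.36, 8.38 and 8.07 at ambient pressure and at 7.65, 7.60 and 7.04 under negative pressure. The groups did not overlap, and the difference was -0.84 ± 0.18 (SE; adjusted p = 0.0749 by limma, or 0.00234 with the replicate block). The median of the 12 exosome genes was -0.08.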

How the data were processed

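Total RNA of 6 HaCaT cultures was measured on Affymetrix arrays of 54675 probe sets. The submitters' processing notes name RMA, which corrects background, scales arrays to each other and sums up probes, and Affymetrix Expression Console 1.2. The log2 values as deposited by the authors ranged from 0.890 to 13.4. The sources used here do not give scan dates, batches or filters. Groups and replicate numbers came from the titles. How the biological replicates were made is not stated, so p-values measure the spread between these samples.

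The platform annotation named 1 gene for 41097 probe sets and several for 1801, and no gene was read from the latter. For each gene the probe set of highest mean was used, with no filter on low values. The groups were compared by limma 3.58.1 (lmFit, then eBayes with its default settings; R 4.3.3), without a block. P-values were adjusted by Benjamini-Hochberg over 19775 genes, or over all 54675 probe sets where single probe sets are compared. The fit without a block was tested on simulated data with independent errors and no offset of the arrays numbered 3. The simulation therefore does not cover that offset or the blocked fit. Precision is limited by the 3 arrays of each group.

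Across genes, deviations from the group means correlated at 0.27, 0.27 and 0.53 for replicate numbers 1, 2 and 3, each above 0.1, and the numbers were treated as pairing the cultures. No label states a shared day or batch. Ambient array 1 correlated more with negative pressure array 2 (0.43) than with array 1 (0.27), and the offset of both arrays numbered 3 enters all these values. The pairing of the cultures numbered 1 and 2 is therefore less sure. Blocked values stand beside a result where they change the call.

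The members, roles, lists and alternatives were chosen with earlier results of these data known. Named with full values were members past the threshold with or without the block, the 10 largest absolute changes, the smallest p and the largest rise of each role, and members with another probe set within 1.5 of the brightest in mean that differed by over 0.4 in log2 fold change. Other pathway genes were named where they passed the threshold, with up to 3 in each direction for the block. Other genes are given for their roles or as neighbours. Alternatives were the replicate block, quantile, median and cyclic loess normalization, leaving out the genes of lowest mean, other rules for the probe set, trend and robust variance, array weights, an adjusted p under 0.1, leaving out each array in turn, and leaving out both arrays numbered 3. The last was also run with the replicate block, which was added after seeing the data. Promoter windows, gene spans and starts came from RefSeq tables of GRCh38.p14, matched by symbol.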

Additional observations from a re-analysis of the deposited data

How the results depend on the processing

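The number of members that fell, 1, was 5 with the replicate block, 6 with array weights (DDX51, NOP58, RRS1, UTP18, WDR12 and WDR43), 2 without both arrays numbered 3 (with or without the block, DDX51 and WDR43), and 0 when a gene's probe sets were averaged, where DDX51 was at -0.48 (adjusted p = 0.0739 by limma). Of all genes, 62 fell in the main fit, 408 with the replicate block and 452 with array weights. Without both arrays numbered 3 it was 150 of all genes, or 168 with the block, and with averaged probe sets 64. With 1 array left out 0 to 1 members fell, where 2 to 46 of all genes fell. No alternative gave a member that rose. The median of the members, -0.22, lay between -0.27 and -0.13 over all alternatives. Of all genes, 182 were called, against 976 with the replicate block, 1145 with array weights, 372 without both arrays numbered 3, 422 without them and with the block, 352 at an adjusted p under 0.1, and 7 to 145 with 1 array left out. Of the other ribosome biogenesis genes 0 were called, and 1, EXOSC9, with the replicate block, repeated quantile normalization, cyclic loess, array weights, an adjusted p under 0.1, and without both arrays numbered 3 with or without the block. With 1 array left out the sign turned for 12 of the 46 members, which lay between -0.14 and 0.08: UTP20, UTP14A, DDX56, HEATR1, NHP2, NCL, POLR1B, WDR74, NAT10, TCOF1, NOP10 and POLR1A. NPM1, at 0.00 in the main fit, is not counted among these and ranged from -0.05 to 0.06. Members below 0, 39, were 34 without negative pressure array 3. WDR74 was at -0.02 with cyclic loess, and POLR1A at -0.12 with the mean of its probe sets and -0.33 with the one of largest variance. With 1 array left out the ranges were -0.05 to 0.15 for NAT10, -0.01 to 0.02 for WDR74, -0.04 to 0.10 for NOP10 and -0.01 to 0.15 for POLR1A. With 3 arrays per group and a median standard error of 0.14, differences of the size most members showed are not resolved gene by gene.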

Other observations

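Several members share a start region with a gene on the other strand. Of the 43 listed genes with a promoter window, 21 have such a neighbour starting within 1000 bases. The 9 listed genes without a window were not assessed, and the share over all genes was not computed. The neighbour of POLR1C, YIPF3, a Golgi protein gene whose start lies 163 bases away, changed by 0.44 ± 0.13 (SE) on the log2 scale, with an adjusted p of 0.184 by limma and of 0.0494 with the replicate block. The neighbours of members with large differences did not share their size. ANKRA2 beside UTP15 was at 0.29, EMC1 beside MRTO4 at 0.23, COG8 beside NIP7 at 0.11, MBTD1 beside UTP18 at 0.25 and NOC4L beside DDX51 at -0.34, and none of these passed the test with or without the block.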
